A study of Mus musculus with 4 samples.

Results

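Group 2 innate lymphoid cells were described here among single cells from the mouse mammary gland, sorted as CD45+ (the surface protein shared by blood-derived cells) and profiled in 2 pooled droplet libraries, here called the first (DR_MG_2021) and the second (DR_MG_2022). A barcode was kept with at least 500 unique molecular identifiers (UMIs, each counting 1 captured RNA molecule), at least 300 genes and at most 10% of UMIs from mitochondrial genes. A kept barcode was a member when it held no UMI of the T cell receptor complex genes Cd3e, Cd3d and Cd3g, at least 2 UMIs of Gata3 and Il1rl1 together, and at least 1 UMI of Rora and Areg together. It also had to hold no UMI of Foxp3 (regulatory T cells), of Cpa3 and Mcpt8 (mast cells and basophils), of Cd79a and Ms4a1 (B cells) or of Ncr1 (natural killer cells and other innate lymphocytes). These UMI counts chose the members, so the levels of those genes describe the choice and nothing was tested on them. The rule found 195 members among 42781 kept cells, namely 56 of 21604 cells (0.259%) in the first library and 139 of 21177 cells (0.656%) in the second.

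Group 2 innate lymphoid cells are tissue lymphocytes without a rearranged antigen receptor. They respond to alarm cytokines from epithelial and stromal cells, among them IL-33, whose receptor ST2 is encoded by Il1rl1, and they depend on the transcription factors GATA3 and RORα. They are known as a source of the type 2 cytokines IL-5 and IL-13 and of amphiregulin (Areg), a growth factor of the epidermal growth factor family. Arginase 1 (Arg1), which breaks down arginine, is also commonly found in them.

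Within each library the cells of different animals had been stained with antibodies that carry a short DNA tag, and the deposited tag sheets give each tag a sample name. The sheet of the first library names HT2 Germ-free, HT4 Nulliparous (never pregnant), HT5 Gestation and HT6 Lactation. The sheet of the second repeats these names, with Involution on HT8, Regression on HT9, Balb/c on HT10 and GF on HT12 as further samples. The sources conflict on HT2 in both libraries. The title of the first library lists involution and no germ-free sample, and the title of the second lists GF among 7 names while its sheet has Germ-free on HT2 beside GF on HT12. Cells of HT2 are therefore called the HT2 sample and enter no comparison of stages. HT4 had 1 count in the whole tag library of the second library, so a Nulliparous sample was analysed in the first library only. Not given in the sources used here are the number of animals behind a tag, their ages, the strain of animals not named Balb/c, and the stage at which Balb/c and GF glands were taken. The tag sequences are printed because they, and no other label, assign a member to a sample; they are designed oligonucleotides in the order 5′ to 3′.
HT2: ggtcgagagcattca
HT4: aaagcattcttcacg
HT5: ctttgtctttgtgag
HT6: tatgctgccacggta
HT8: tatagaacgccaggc
HT9: tgcctatgaaacaag
HT10: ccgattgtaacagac
HT12: ctgcaaatataacgg

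The kept cells held 50906081 UMIs in the first library and 90109576 in the second. Of the members, 47 in the first library and 112 in the second carried a single tag and were not marked as doublets, and these 159 analysed members are described below. Of the rest, 8 in the first library and 18 in the second carried several tags, 1 and 8 carried none, and 1 single-tag cell of the second library was marked as a doublet. The median analysed member held 1363 UMIs in the first library and 3082 in the second, close to the medians of 1357 and 2811 over all analysed cells. Members were thus read about as deeply as other cells of their library, but more deeply in the second than in the first, so shares of cells with a UMI are given for each library apart. The libraries shared 139 barcode sequences, and 1 member of the second library and none of the first library lay among them.

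Genes outside the rule were then read to see what else the members held. Each analysed member was scored by which of 4 marker lists gave it the most UMIs. These were a list of 19 cytokine and costimulatory receptor genes, without Il1rl1, and lists of 17 epithelial, 12 stromal and endothelial and 13 myeloid genes. This split was chosen after the members' values had been seen. The receptor list led in 44 of 47 members of the first library and in 88 of 112 of the second, and these are called receptor-led members. The receptor list does not set members apart from other lymphocytes: it also led in 9 of 10 and 134 of 149 cells that failed the rule on Cd3 alone, and in 3 of 3 and 14 of 16 that failed on Ncr1 alone. In the first library the other 3 cells were 1 led by myeloid genes and 2 with equal sums. In the second library the epithelial list led in 10 cells, the stromal list in 5 and the myeloid list in 9.

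The 10 epithelial-led cells of the second library differed from the label. All 10 held Gata3, none held Il1rl1, and 3 held Ptprc, the gene of CD45. Gata3 is also a transcription factor of mammary luminal epithelium. Their median was 42150 UMIs, and they gave 51.8% of all UMIs of the members of the second library. The 88 receptor-led cells gave 31.3%. The 5 stromal-led cells had a median of 6719 UMIs and 1 of them held Il1rl1, whereas the 9 myeloid-led cells had a median of 12210 UMIs and 8 held Il1rl1. The epithelial-led cells came from Regression (4), GF (3), HT2 (2) and Involution (1). Whether the cells led by another list are doublets or single cells of another type was not tested. Because the epithelial-led cells weigh so heavily in any sum of UMIs, levels by sample are given for receptor-led members, and elsewhere the set of cells is named with the value.

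**Figure D1:**
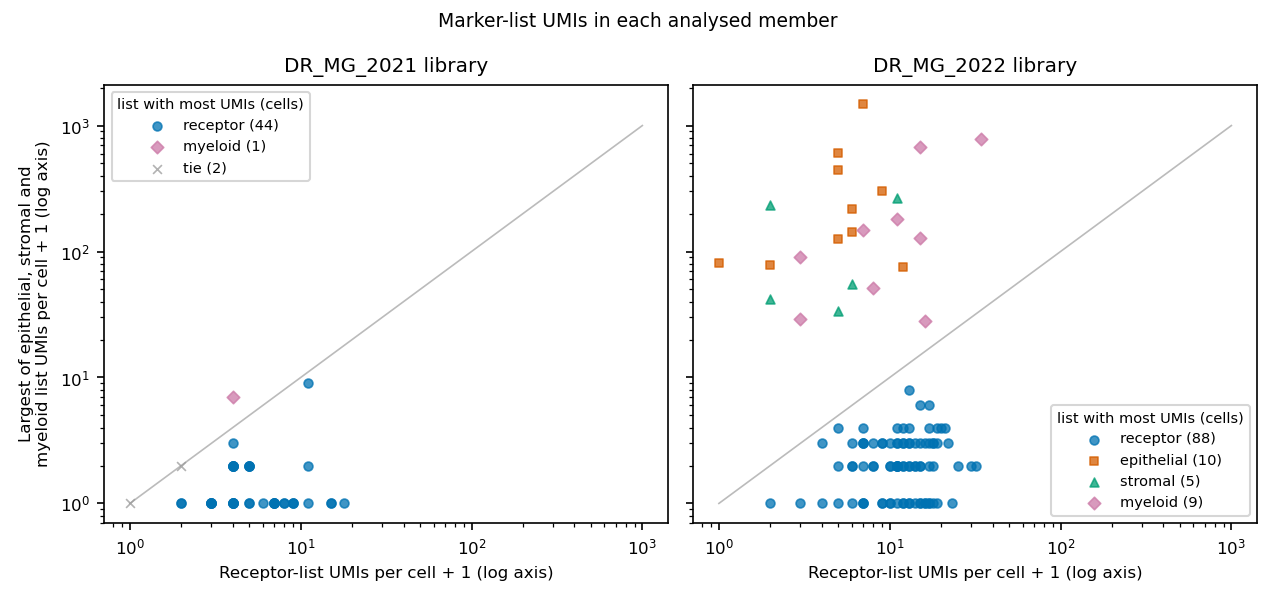
UMIs of the receptor list (x axis, plus 1, log scale) against the largest of the epithelial, stromal and myeloid list sums (y axis, plus 1, log scale), 1 point for each analysed member, coloured by the list with the most UMIs. The 44 and 88 receptor-led cells lie below the diagonal, and the 10 epithelial-led cells of the second library stand at the top of the right panel.

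Among the genes of the rule, Gata3 was seen in 89.4% of members in the first library and 93.8% in the second, and Il1rl1 in 85.1% and 75%. Both occurred in the same cell in 35 of 47 and 77 of 112 members. Most members thus held UMIs of both genes, and fewer passed on either gene alone. The rule itself favours this, because 1 UMI of each gene is enough and 1 UMI of a single gene is not. Rora was seen in 78.7% and 90.2%, and Areg in 34% and 38.4%. Arg1, a marker that the rule did not use, was seen in 34% of members in the first library and 30.4% in the second, against 0.486% and 0.462% of all other analysed cells. At least 4 of the 5 markers Il1rl1, Gata3, Rora, Areg and Arg1 were seen in 13 of 47 and 48 of 112 members, and all 5 in 1 and 8.

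The cells next to the thresholds are given as a description. Just outside, 23 cells of the first library and 26 of the second met every other condition but held 1 UMI of Gata3 and Il1rl1, and Arg1 was seen in 8.7% and 0% of them. Just inside, with exactly 2 UMIs, 22 and 17 members had Arg1 in 36.4% and 5.88%. With at least 4 UMIs, 16 and 81 members had Arg1 in 31.3% and 38.3%. In the second library the members at the threshold thus resembled the cells outside it in Arg1 more than those far inside, and in the first library they did not. Of the 17 members of the second library at the threshold, 10 were receptor-led, against 68 of the 81 far inside.

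Genes that led the members were chosen by their UMIs per 10000 UMIs, as the ratio of members to all other analysed cells of the library, with 0.01 added to each level and the smaller of the 2 libraries' ratios used for the order. A gene needed a UMI in at least 10% of members in both libraries, and 2119 genes outside the rule met this. The 25 leading genes had smaller log2 ratios from 2.00 to 4.93, and 19 of them were also among the 25 leading genes of the receptor-led cells. They are given without a test, because the rule itself set the members apart from the other cells. Of the 25, 8 stood in a list of genes chosen for this cell type.

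The leading gene was Pcsk1, a protease that cuts prohormones, seen in 12.8% of members in the first library and 25.9% in the second at 1.24 and 0.469 UMIs per 10000, against 0.0032 and 0.00571 in other cells. Furin, a protease of the same family, was seen in 59.6% and 68.8% of members at 18.2 and 4.30 UMIs per 10000. It was the leading gene with the highest level in both libraries. Lif, a cytokine of the IL-6 family, was second and was seen in 10.6% and 21.4% of members. Arg1 followed at 3.58 and 0.797 UMIs per 10000 against 0.032 and 0.023 in other cells. Further leading genes with known roles were Il2ra (the IL-2 receptor alpha chain), Klrg1 (an inhibitory lectin receptor), Ptgir (the prostacyclin receptor) and Csf1 (a macrophage growth factor). Slc7a8 (an amino acid transporter), Alox5 (the lipoxygenase that starts leukotriene synthesis), Hilpda (a lipid droplet protein), Lmna (a lamin of the nuclear envelope) and Hlf (a transcription factor) were also among them. The remaining names were Dach2, Ccdc184, Rnf128, Gm47050, Cntn1, Denn2b, Ptpn13, Dst, Nrgn, Plxdc2, Olfr1259 and Fdx1. Of these, Ptpn13, a tyrosine phosphatase, was seen in 38.3% and 32.1% of members, and Nrgn in 31.9% and 47.3%. These values are over all members. Among receptor-led cells the level of Pcsk1 was 1.31 UMIs per 10000 in the first library and 1.42 in the second, that of Furin was 19 and 10.7, and that of Arg1 was 3.36 and 2.25. Pcsk1 was seen in 13.6% and 31.8% of these cells. Lif, Gm47050, Csf1, Dst, Fdx1 and Hilpda were not among the 25 leading genes of receptor-led cells. Lif, Gm47050 and Csf1 were seen in 9.09%, 9.09% and 6.82% of them in the first library, under the 10% needed. Dst, Fdx1 and Hilpda had smaller log2 ratios of 1.51, 0.448 and 2.54. In the second library Fdx1 stood at 0.374 UMIs per 10000 in receptor-led cells, near the 0.272 of other cells.

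Beyond this ranking, 20 lists of genes by role were read. As a background, 2149 of 55253 genes (3.89%) had a UMI in at least 10% of members in the first library, and 6343 (11.5%) did in the second. This background is over all members, with the cells led by other lists, and was not computed by library for receptor-led cells. Outside the rule, 1946 genes reached 10% of receptor-led cells in both libraries, against 2119 for all members. A share of 0 among the analysed members allows a true share of cells with a UMI of up to 6.38% in the first library and 2.68% in the second, and among receptor-led members of up to 6.82% and 3.41%, counting error only. Unless stated, the shares in the paragraphs on these lists are of receptor-led cells, first of the first library and then of the second. T cells serve as a broad comparison. They are the 6147 and 6163 analysed cells with a Cd3 UMI and no Cd79a or Ms4a1 UMI. Their median depths were 1450 and 3028 UMIs, against 1366 and 2722 in receptor-led cells. They include the cells that meet the rest of the rule, which are more like the members and are described further below.

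Among the receptors of alarm signals and cytokines, 11 of 20 genes were seen in at least 10% of receptor-led cells in the first library and 17 of 20 in the second. Il7r, which encodes the receptor chain for the survival cytokine IL-7, was the most frequent at 72.7% and 90.9%, against 24.9% and 39.2% of T cells. Il2ra was seen in 40.9% and 60.2%, against 2.44% and 6.21% of T cells. Il2rb, the IL-2 receptor beta chain, had the opposite order, with 13.6% and 36.4% against 45.5% and 59.6% of T cells. Il2rg, the chain shared by the receptors for IL-2 and IL-7, was seen in 54.5% and 75%. The costimulatory receptors Tnfrsf18 (GITR) and Icos were seen in 27.3% and 55.7%, and in 15.9% and 42%. Kit, the stem cell factor receptor, was seen in 18.2% and 17.1%, against 0.683% and 1.54% of T cells. The receptor for IL-25, Il17rb, was rarer at 4.54% and 12.5%, and Il1r2, the IL-1 decoy receptor, was at 0 in both libraries. Apart from Kit, these genes themselves set which cells are receptor-led. Over all analysed members Il7r was seen in 70.2% and 76.8%, Il2ra in 38.3% and 49.1%, and Il2rg in 51.1% and 66.1%.

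The receptors of lipid mediators, nerves and hormones counted 7 of 20 genes in the first library and 10 of 20 in the second. Ltb4r1, a leukotriene B4 receptor, was seen in 38.6% and 46.6% against 1.35% and 4.22% of T cells. Ptgir was seen in 13.6% and 37.5% against 0.293% and 1.83% of T cells, and Cysltr1, a cysteinyl leukotriene receptor, in 15.9% and 25%. Ramp1, a subunit of the receptor for the neuropeptide CGRP, was seen in 25% and 54.5%, while its partner Calcrl was seen in 6.82% and 14.8%. The leukotriene and prostacyclin receptors were thus frequent in these cells, but Ptgdr2 (CRTH2, the prostaglandin D2 receptor often used to mark them) was at 0 in all 159 analysed members. Nmur1, the neuromedin U receptor, was seen in 0% and 2.27%. Among hormone receptors, Nr3c1 (glucocorticoids) was seen in 36.4% and 51.1%, against 16.2% and 35.1% of T cells. The oestrogen receptor gene Esr1 and the prolactin receptor gene Prlr were each seen in 0% and 1.14%. In all 112 members of the second library they stood at 8.04% and 10.7%, which is the set with the epithelial-led cells.

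Of the cytokines and secreted products, 4 of 19 genes reached 10% of receptor-led cells in the first library and 6 of 19 in the second. The type 2 cytokine genes were rare. Il5 was seen in 2.27% and 9.09%, Il13 in 2.27% and 2.27%, and Il4 in 0% and 1.14%, while Il9 was at 0 in both libraries. Csf2, the gene of the growth factor GM-CSF, was seen in 4.54% and 25%, against 0.0651% and 0.876% of T cells. Lif was seen in 9.09% and 25%, and Calca, the precursor of CGRP, in 4.54% and 7.96%. Ltb (lymphotoxin beta) was the most frequent at 63.6% and 89.8%, but T cells had 43.9% and 73.5%. Tgfb1 was seen in 18.2% and 69.3%, and Tnf in 13.6% and 21.6%. Il10 was seen in no receptor-led cell, and Penk, a proenkephalin, likewise in none.

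Of the transcription factors, 6 of 19 genes reached 10% of receptor-led cells in the first library and 13 of 19 in the second. Id2, a repressor of E proteins needed by all innate lymphoid cells, was seen in 70.5% and 95.5% against 35.3% and 58.9% of T cells. Lmo4, a LIM-only cofactor, was seen in 47.7% and 72.7% against 8.3% and 17.7% of T cells. Bcl11b, which T cells also need, was seen in 40.9% and 53.4% against 31.7% and 55.9%. Tcf7, a factor of naive T cells and of innate lymphoid precursors, was lower than in T cells, with 6.82% and 18.2% against 26.2% and 50.1%. Nfkb1 was seen in 40.9% and 70.5%, Ets1 in 54.5% and 85.2%, and Maf in 22.7% and 47.7%. Pparg, a regulator of lipid metabolism, was seen in 4.54% and 10.2%.

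Surface, residency and migration genes counted 11 of 23 in the first library and 13 of 23 in the second. Cxcr6, a chemokine receptor of tissue lymphocytes, was seen in 50% and 61.4% against 21.3% and 38.8% of T cells. Klrg1 was seen in 22.7% and 40.9% against 1.27% and 2.68% of T cells. Itgb7 (integrin beta 7) was seen in 47.7% and 71.6%, and Rgs2, a regulator of G protein signalling, in 54.5% and 76.1%. Thy1, a classical surface marker of these cells, was seen in 27.3% and 61.4%, below T cells with 44.8% and 67.8%. S1pr1, which guides exit from tissue, was seen in 2.27% and 11.4% against 18.9% and 34.6% of T cells. Ccr7, which guides entry into lymph nodes, was seen in 0% and 1.14% against 9.45% and 18% of T cells. Klf2, a transcription factor that drives S1pr1, was seen more often, with 11.4% and 27.3% against 26.6% and 48.1% of T cells. Among the integrins of epithelial retention, Itgae was seen in 6.82% and 4.54% against 25% and 26.7% of T cells, and Itga1 in 0% and 2.27% against 26.6% and 33.1%.

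Metabolic genes counted 7 of 14 in both libraries. Slc7a8 was seen in 27.3% and 46.6% against 0.358% and 1.92% of T cells, and Alox5 in 22.7% and 28.4% against 0.114% and 1.01%. Dgat1, an enzyme of triglyceride synthesis, was seen in 13.6% and 19.3%, and Hilpda in 13.6% and 25%. Tph1 and Ddc, enzymes of serotonin synthesis, were at 0 in receptor-led cells of both libraries.

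Immediate early and stress genes counted 14 of 15 in both libraries. Fosb was seen in 77.3% and 86.4% of receptor-led cells against 13.2% and 24.6% of T cells and 27.2% and 22.7% of B cells. B cells here are the 1361 and 2880 analysed cells with at least 2 UMIs of Cd79a and Ms4a1 and no Cd3 UMI. Fos was seen in 70.5% and 81.8%, Dusp1 in 65.9% and 89.8%, and Nr4a1, which antigen and other receptor signals induce, in 47.7% and 75%. Over the whole list the receptor-led cells held 106.9 and 208.8 UMIs per 10000, and T cells 22.8 and 43.3. The heat shock genes Hspa1a and Hspa1b were at 13.6% and 9.09% and at 15.9% and 21.6%, against 11.4% and 21.7% and 18.4% and 32.2% of T cells.

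When every cell was thinned at random to 1000 UMIs, 38 and 86 receptor-led cells were deep enough. Il7r was then seen in 52.6% and 73.3%, Arg1 in 28.9% and 20.9%, Klrg1 in 13.2% and 23.3%, and Il2ra in 26.3% and 27.9%. Fosb was seen in 71.1% and 67.4% of receptor-led cells and in 18.8% and 12.9% of B cells at the same depth. Fosb was thus more frequent in receptor-led cells than in B cells at equal depth too.

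Genes of other lineages were then read in the same cells. Of the T cell list, 4 of 15 genes reached 10% of receptor-led cells in the first library and 5 of 15 in the second, against 13 and 15 in T cells. Trac, the constant gene of the T cell receptor alpha chain, was seen in 2.27% and 1.14%, against 37.8% and 62.9% of T cells. Trbc1 and Trbc2, the beta chain constant genes, were more frequent, with 13.6% and 38.6% for Trbc1 and 29.6% and 43.2% for Trbc2. In B cells Trbc2 was seen in 2.06% and 4.17%, at median depths of 930 and 2038 UMIs. The receptor-led cells thus held beta chain transcripts above the level of B cells with almost no alpha chain transcript. The 2 beta chain genes are near-identical copies, so reads could be split between them. Cd8a was seen in 0% and 1.14%, Cd5 in 0% and 2.27%, and Cd4 in 0% and 2.27%. Ncr1 cells are the 1335 and 1206 analysed cells with an Ncr1 UMI and no Cd3, Cd79a or Ms4a1 UMI. Over the whole T cell list they held 10.79 and 11.96 UMIs per 10000, and receptor-led cells 9.50 and 10.18. In Ncr1 cells 4 and 8 of the 15 genes reached 10%. The level of this list thus does not set receptor-led cells apart from Ncr1 cells.

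The same rule with a Cd3 UMI required in place of none found 10 cells in the first library and 149 in the second. Over all 149 cells, Il7r was seen in 67.8%, Il2ra in 34.9% and Ltb4r1 in 27.5%, with Arg1 in 8.7% and Klrg1 in 7.4%. Il7r, Il2ra and Ltb4r1 were thus frequent in these cells of the second library too. Of the 10 cells of the first library, 4 held Il7r, 2 held Ltb4r1 and 0 held Il2ra. Of the cells of the second library, 31 held exactly 1 Cd3 UMI and 118 held more. In the 31 cells Arg1 was seen in 35.5% and Trac in 29%. In the 118 cells Arg1 was seen in 1.70%, Trac in 75.4% and Cd5 in 39.8%. Cells with 1 Cd3 UMI therefore lay between the members and the cells with more in Trac, and beside the members in Arg1. In the first library only 3 such cells held 1 Cd3 UMI, too few for a share. A single UMI of a B cell gene excluded 10 further cells of the second library, and Il7r was seen in 70% of them. Ncr1 excluded 3 cells of the first library and 16 of the second.

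Type 1 and natural killer genes counted 1 of 14 and 3 of 14. Tbx21 (T-bet) was seen in 0% and 5.68% against 10.1% and 19.2% of T cells, and Nkg7 in 9.09% and 14.8% against 54.2% and 63.2%. Type 3 genes counted 0 of 10 in both libraries, with Il17a, Il17f and Il22 at 0. Of the B cell list, Pax5 and Mzb1 were at 0, and Igkc was seen in 84.1% and 69.3%, against 90.7% and 78.5% of T cells. Of the mast cell list, Ms4a2, Gata2 and Hdc were at 0, and only Srgn, a granule proteoglycan gene of many leukocytes, passed 10%. Myeloid genes counted 3 of 16 and 6 of 16, with Lyz2 at 6.82% and 21.6% beside 8.72% and 27.9% of T cells, and with S100a9, Flt3 and Xcr1 at 0.

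The epithelial list had 16 of 18 genes at 0 in receptor-led cells of the first library and 8 of 18 in the second, and only Kit reached 10%. In all members of the second library, Krt8 was seen in 13.4% and Elf5, a factor of milk-secreting cells, in 10.7%, against 2.27% for each in the receptor-led cells. Their low level in receptor-led cells, like that of stromal and myeloid genes, follows in part from how those cells were chosen. The stromal list had 10 of 12 genes at 0 in the first library and 4 of 12 in the second. Milk transcripts occurred in every set: Csn2, the beta-casein gene, was seen in 40.9% and 72.7% of receptor-led cells, 40% and 75% of T cells and 39.1% and 71.8% of B cells. Csn2 thus stood at a like share in all these sets, and Igkc at a like share in receptor-led cells and T cells. Whether such shares come from free RNA or from the cells themselves was not tested. The cell cycle list stood at 25.3 and 14.9 UMIs per 10000 in receptor-led cells against 18.4 and 20.2 in T cells, and a single receptor-led cell held 45.1% and 47.9% of its UMIs. Mki67, its marker of dividing cells, was seen in 4.54% and 2.27% against 7.78% and 8.54% of T cells. Of the interferon response list, 2 of 12 and 5 of 12 genes reached 10%, led by Ly6e at 84.1% and 80.7%. Ifi27l2a was seen in 6.82% and 17.1%, against 29.1% and 52.5% of T cells. Class II genes counted 3 of 7 and 5 of 7, with Cd74 in 20.4% and 69.3% against 17.2% and 71.5% of T cells.

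**Figure D2:**
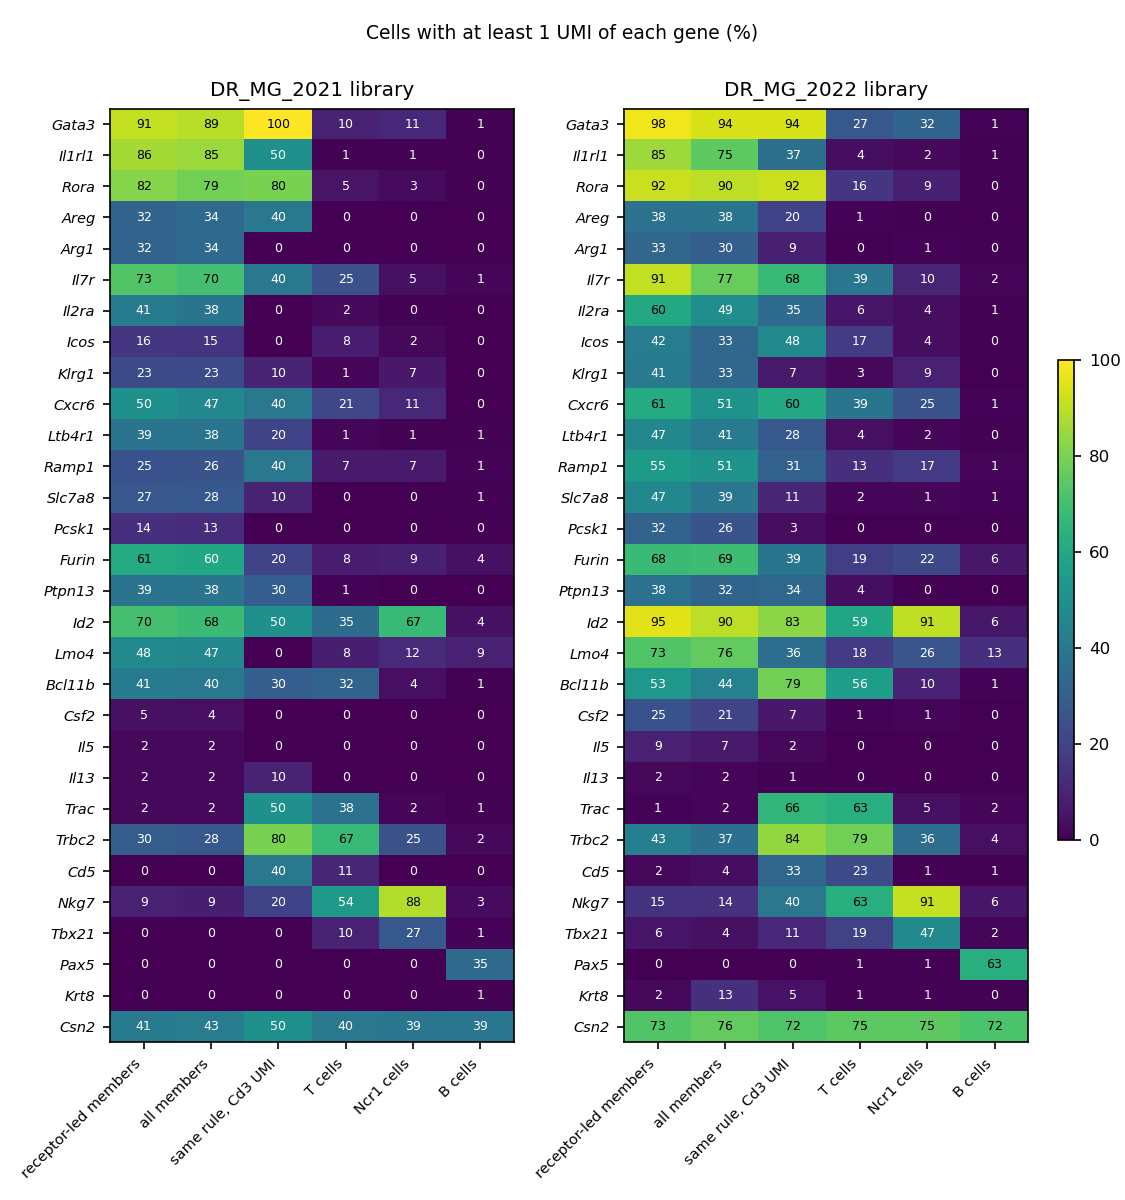
Share of cells (%, colour and printed value) with at least 1 UMI of each named gene (rows) in 6 sets of analysed cells (columns), the first library on the left and the second on the right. Il7r, Il2ra, Arg1, Klrg1 and Ltb4r1 are seen most in the members, Trac is near 0 there, and Csn2 has a like share in every column of a library. The genes of the rule and of the set definitions describe the choice of cells.

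The members differed among themselves. In the second library, 19 of 88 receptor-led cells held both Arg1 and Klrg1, 10 held Arg1 alone, 17 held Klrg1 alone and 42 held neither. Il2ra was seen in 25 of 29 cells with Arg1 and in 28 of 59 without it, at median depths of 2717 and 2818 UMIs. Cxcr6 was seen in 22 of 29 and 32 of 59. Over all members of the first library, Il2ra was seen in 7 of 16 cells with Arg1 and 11 of 31 without it, and Areg in 3 of 16 and 13 of 31. Cells of several samples are pooled in these counts, so they describe the cells and were not tested.

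The share of analysed cells that were members was then read by sample, with exact (Clopper-Pearson) 95% binomial intervals that cover counting error only. In the first library the share was 0.213% in Nulliparous (12 of 5632 cells, interval 0.11% to 0.372%), 0.159% in Gestation (7 of 4408, 0.0639% to 0.327%) and 0.372% in Lactation (9 of 2421, 0.17% to 0.705%). The HT2 sample had the highest share of the first library, 0.672% (19 of 2826, 0.405% to 1.05%). Its interval lay above those of Nulliparous and Gestation and met that of Lactation. With receptor-led members (0.351% to 0.961%) it met that of Nulliparous too, and with cells thinned to 1000 UMIs (0.206% to 0.851%) it met all 3.

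In the second library the share was lowest in Gestation, 0.3% (10 of 3328, interval 0.144% to 0.552%). Lactation had 0.766% (6 of 783, 0.282% to 1.66%) and Involution 0.631% (14 of 2219, 0.345% to 1.06%). Regression had 1.04% (25 of 2392, 0.677% to 1.54%). The share was 1.06% in Balb/c (21 of 1972, 0.66% to 1.62%), 0.895% in GF (19 of 2123, 0.54% to 1.39%) and 0.947% in HT2 (17 of 1795, 0.553% to 1.51%). From lowest to highest the order was Gestation, Involution, Lactation, GF, HT2, Regression and Balb/c. The intervals of neighbours in this order met one another throughout, and those of Regression, Balb/c and HT2 lay above that of Gestation. With receptor-led members, or with cells thinned to 1000 UMIs, the interval of Balb/c alone lay above that of Gestation. Each name has 1 sample in a library, so the spread between animals is not known for these differences. A higher share can come from more members or from fewer other cells, which these data cannot tell apart.

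Counted against T cells, members numbered 4.30 per 1000 cells with a Cd3 UMI in Nulliparous, 4.50 in Gestation, 8.13 in Lactation and 22 in HT2 in the first library. The numbers in the second library were 4.69 in Gestation, 11.2 in Lactation, 15.5 in Involution, 19.9 in GF, 21.1 in Balb/c, 32.8 in Regression and 37.1 in HT2. Gestation was lowest in the second library on both scales, and HT2 was highest in both libraries on this one. With receptor-led cells alone the shares of the second library were 0.27% in Gestation, 0.639% in Lactation, 0.541% in Involution, 0.669% in Regression, 1.01% in Balb/c, 0.659% in GF and 0.668% in HT2. Regression thus stood beside Balb/c over all members, and beside GF, HT2 and Lactation when the cells led by other lists were left out. Regression held 25 members, of which 4 were epithelial-led, 3 stromal-led and 2 myeloid-led.

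Gestation and Lactation were the only stages present in both libraries under undisputed names. The share was 2.34-fold higher in Lactation in the first library (exact 95% interval of the ratio 0.776 to 7.40) and 2.55-fold higher in the second (0.762 to 7.74). Both intervals include equal shares. The ratios were 1.09 and 1.89 with at least 3 UMIs of Gata3 and Il1rl1, 2.43 and 1.06 with Il1rl1 required, and 1.47 and 1.58 with tags assigned at a quantile of 0.95. They were 3.04 and 8.5 without cells that held a T cell receptor or coreceptor UMI. The last of these rests on 2 members in Lactation and 1 in Gestation, with an interval of 0.442 to 502. The mean log2 ratio was 1.29 over the 2 libraries, and a two-sided exact permutation test of the stage names within libraries gave p = 0.5, the smallest value that this design allows. When the rule was applied to cells thinned to 1000 UMIs, the shares were 0.204% in Gestation and 0.183% in Lactation in the first library, and 0.152% and 0.259% in the second. At equal depth the ratios were 0.898 and 1.70, so the direction in the first library was the opposite one. A genome-wide test of gene levels between these stages was not made, because only 7, 9, 10 and 6 members stood in the 4 samples and the minimum set for it was 10 in each.

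**Figure D3:**
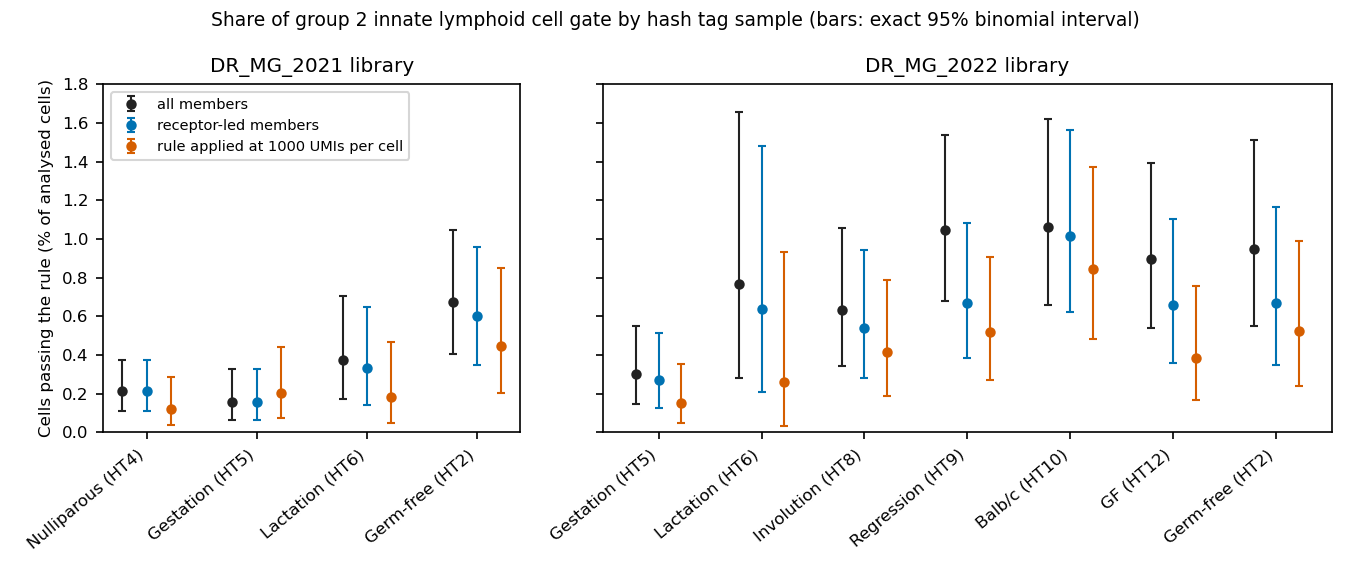
Share of analysed cells that pass the rule (y axis, %) for each tagged sample (x axis), the first library on the left and the second on the right, with exact 95% binomial intervals as bars. Black points are all members, blue points receptor-led members and orange points the rule at 1000 UMIs per cell; in black, HT2 is highest in the first library and Gestation lowest in the second library.

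Gene levels were compared by sample as UMIs per 10000 UMIs of receptor-led cells, with exact 95% Poisson intervals that cover counting error only, and samples with under 10 such cells are left out. Il1rl1 stood at 5.96 (interval 3.08 to 10.4) in Nulliparous and 10.5 (7.16 to 15) in HT2 in the first library. In the second library Balb/c had 15.2 (12 to 19.1), Involution 12 (9.04 to 15.6), Regression 11 (8.26 to 14.4), GF 10.2 (7.14 to 14.1) and HT2 8.84 (6.01 to 12.6). The intervals for Il1rl1 met among all samples of a library. Gata3 ranged in the second library from 9.16 (6.60 to 12.4) in Involution to 15.4 (12.2 to 19.3) in Balb/c, with intervals that met. Il7r, a gene of the list that chose the receptor-led cells, ranged there from 10 (7.34 to 13.4) in Involution to 18.1 (13.9 to 23.1) in GF, and these 2 intervals did not meet.

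Areg, a gene of the rule, also had intervals that did not all meet, while those of Arg1 met within each library. For the samples of the second library, Areg was 9.99 (7.36 to 13.2) in Regression and 8.56 (5.77 to 12.2) in HT2, against 3.27 (1.83 to 5.39) in Involution, 2.03 (0.973 to 3.73) in Balb/c and 2.26 (0.978 to 4.46) in GF. It was seen in 10 of 16 cells of Regression, 4 of 12 of HT2, 3 of 12 of Involution, 5 of 20 of Balb/c and 3 of 14 of GF. Arg1 was 4.85 (2.83 to 7.76) in HT2, 3.04 (1.70 to 5.02) in Balb/c, 2.29 (1.14 to 4.09) in Regression, 1.96 (0.897 to 3.73) in Involution and 1.13 (0.308 to 2.90) in GF. In the first library Arg1 was 2.48 (0.806 to 5.80) in Nulliparous and 4.08 (2.11 to 7.12) in HT2. For Areg the interval of Regression lay above those of Involution, Balb/c and GF. Cells without Rora are members only through Areg, among them the HT2 cell with 21 Areg UMIs. The Areg levels thus describe in part the choice of cells. The Areg value of HT2 rests on a single cell, which held 70% of its UMIs, and in Regression a single cell held 29.2%. A single cell also held most of the Areg UMIs in Involution (9 UMIs) and in GF (6 UMIs). In Balb/c the highest cell held 5 UMIs. For Arg1 HT2 had the highest value in both libraries, and its interval met that of every other sample. In the second library a single cell held most of the Arg1 UMIs in Involution (7 UMIs) and in GF (3 UMIs). Few cells carry each value, and with 1 sample a name no test was made.

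For each name with 1 sample in a library, a fixed rule named up to 3 genes a direction with the greatest difference from the other samples' members, provided that the higher side held at least 20 UMIs. Over all members it named 48 genes, and in 24 of them at least 50% of the UMIs came from 1 cell. Among receptor-led cells it named 42, with 19 such genes. In the first library the genes named in Nulliparous included Ccl5 and Gzma and those in HT2 the class II genes H2-Aa and H2-Ab1, in each case with nearly all UMIs in 1 cell. These names describe single cells rather than a sample.

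Balb/c was different in that its named genes were spread over many cells. Gm15772 was seen in 15 of its 20 receptor-led cells, with 34 UMIs or 6.90 per 10000, against 2 UMIs in the other 68 cells of the second library. Gm47283 was seen in 18 of 20 cells at 9.74 per 10000, and Cyth1, an exchange factor for ARF proteins, in 16 of 20 at 4.67. In the other direction H2-Q6, Odc1 and Ly6a were at 0 in Balb/c. The other 68 cells held 107 UMIs of H2-Q6 in 49 cells, 87 of Odc1 in 24 and 75 of Ly6a in 38. Ly6a encodes Sca-1, a surface marker of many lymphocytes, and Odc1 the first enzyme of polyamine synthesis.

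The same genes were read in T cells of the samples of the second library. Gm15772 was seen in 73.6% of Balb/c T cells against 0.157% to 1.19% in the other tags, Gm47283 in 86.7% against 32.2% to 57.3%, and Cyth1 in 60.8% against 25.9% to 36.0%. H2-Q6 was seen in 8.77% against 49.4% to 62.0%, Ly6a in 3.06% against 13.6% to 25.6%, and Odc1 in 13.9% against 20.7% to 22.1%. The 6 genes thus differed in the same direction in T cells of Balb/c. H2-Q6 belongs to a family of near-identical class I genes whose reads may be shared, so its level is uncertain, and the same holds for the predicted genes Gm15772 and Gm47283.

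**Figure D4:**
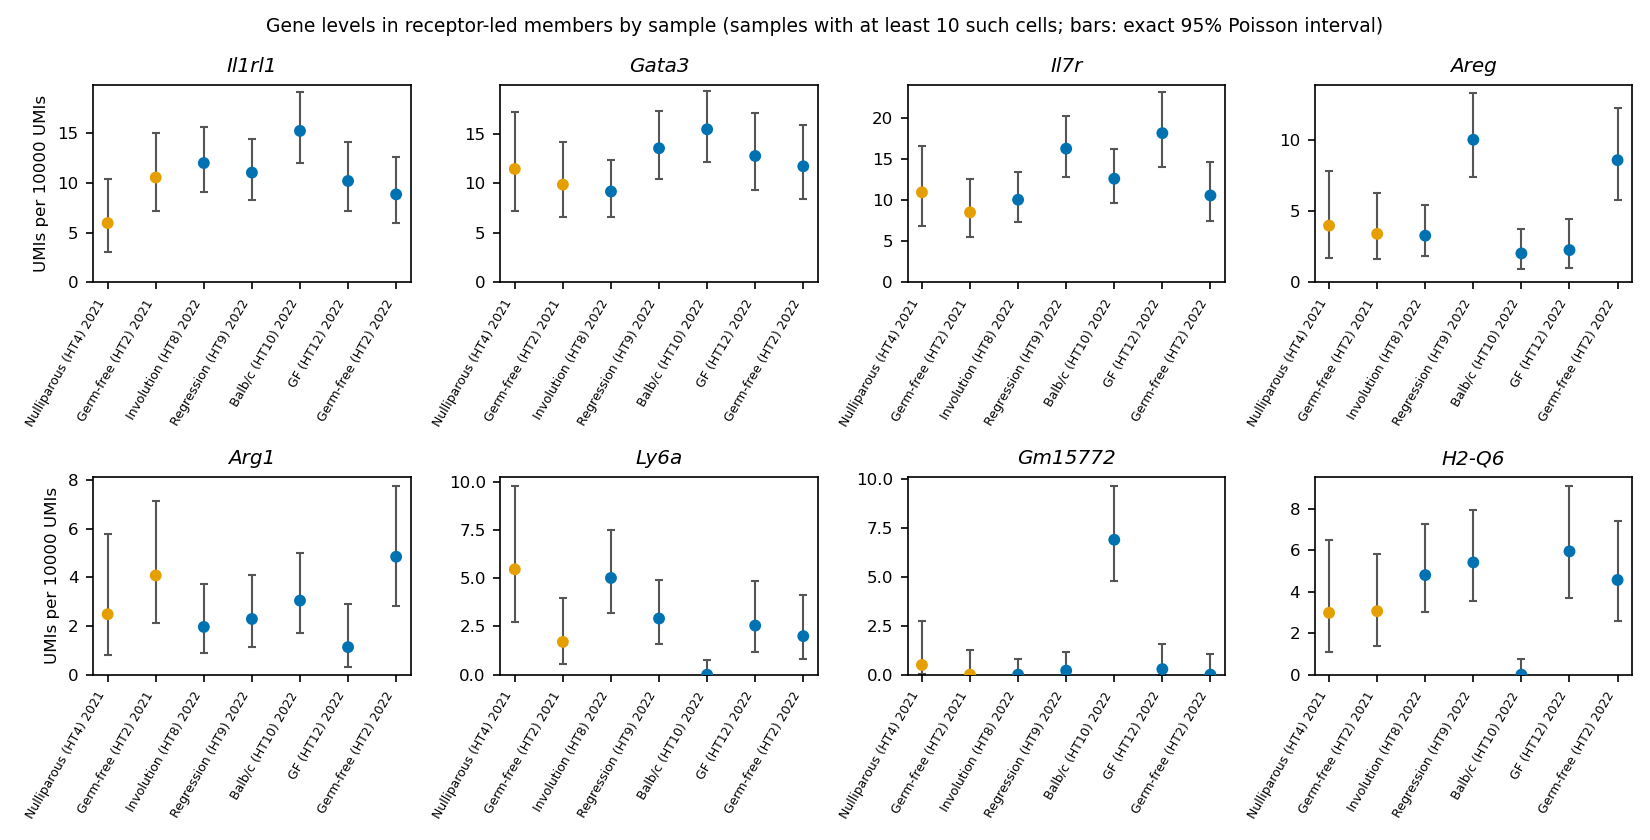
UMIs per 10000 UMIs (y axes) of 8 genes in receptor-led members of each sample with at least 10 such cells (x axes), the first library in orange and the second library in blue, with exact 95% Poisson intervals as bars. Il1rl1, Gata3 and Il7r are present in every sample shown, and Gm15772, Ly6a and H2-Q6 set Balb/c apart. In the second library the Areg values of HT2, Involution and GF come mostly from 1 cell each, as do the Arg1 values of Involution and GF.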

How the data were processed

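Single cells were captured with the 10x Genomics 3' v3.1 chemistry, per the labels. The UMI counts per gene and per tag were deposited by the authors; mm10 and Cell Ranger 6.1.0 stand in the submitters' processing notes, and the file headers of the first library name Cell Ranger 4. Tags were assigned with HTODemux (Seurat 5.3.0, R 4.3.3, quantile 0.99), and doublets were marked with Scrublet in scanpy 1.11.5 (expected rate 0.08, Python 3.11.15), which marked 7.86% and 6.87% of kept cells. Members and gene lists were chosen with earlier results of these data known. Genes were named from the rule and markers, from each list by level among those in at least 10% of members of either library (up to 6 a list), at 0 where a list defines another cell type, from the 25 leading genes, and from the 1-sample rule. Other list genes, such as Il13, Il4, Il9, Nmur1, Esr1, Prlr, Ccr7, Itga1, Tph1, Ddc and Penk, were named after their values were seen. Stages were compared over tagged samples by an exact permutation test; no model across genes was fitted. Whether a tag is 1 animal is not stated, so intervals cover counting error only. The gate, the thinning and the 1-sample rule were checked on simulated data, and the ranking of leading genes was not. The simulated counts for the 1-sample rule were drawn for pooled cells, so a gene held mostly by 1 cell was not covered. Alternatives were the tag quantile, the UMI thresholds, doublets kept, cells thinned to 1000 UMIs, and, chosen after seeing the data, receptor-led members and a Cd3 denominator. Some genes of the lists are not reported here.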

Additional observations from a re-analysis of the deposited data

Results flagged for a closer look

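In the first library the HT2 sample, whose name the sources dispute and which entered no comparison of stages, held members at 0.672% of its analysed cells (19 of 2826). It is listed here because it lies outside the comparison and its interval, 0.405% to 1.05%, lies above that of Nulliparous, 0.11% to 0.372%. With receptor-led members the intervals met (0.351% to 0.961% in HT2), and they also met at 1000 UMIs per cell (0.206% to 0.851% in HT2, 0.0399% to 0.287% in Nulliparous). No replicate of this sample exists in the library, and the difference was not tested.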

How the results depend on the processing

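The Lactation to Gestation share kept its direction on average under all 9 alternatives, with mean log2 ratios from 0.31 (thinned, where the first library turned to -0.16 and p was 1) to 2.35 (no T cell receptor or coreceptor UMI); p was 0.5 under the others. The ratio of a single library came near 1 with at least 3 UMIs of Gata3 and Il1rl1 (1.09, first library) and with Il1rl1 required (1.06, second), and fell to 1.47 and 1.58 at a tag quantile of 0.95. At that quantile more cells were assigned to Lactation, which then held 8 members of 3292 cells in the first library and 6 of 1593 in the second. Requiring 3 UMIs of Gata3 and Il1rl1 lowered the shares of the first library to 0.124% in Lactation and 0.354% in HT2. Excluding cells with a T cell receptor or coreceptor UMI gave, in the second library, 0.0301% in Gestation, 0.255% in Lactation, 0.18% in Involution, 0.543% in Regression, 0.507% in Balb/c, 0.518% in GF and 0.501% in HT2. That exclusion kept 29 of 47 members in the first library and 50 of 112 in the second, so most members of the second library held such a UMI. In Gestation of the second library it kept 1 of 10. Requiring Il1rl1 gave 0.255% in Lactation of the second library. Thinning to 1000 UMIs gave 0.259% in Lactation, 0.519% in Regression, 0.386% in GF and 0.523% in HT2 in the second library, and receptor-led members gave 0.669% in Regression. The cause was not tested. Receptor-led cells thinned to 1000 UMIs gave 0.122% in Gestation of the second library and 0.399% in HT2 of the first, both below the intervals of the shares reported. Of 128 gene levels by sample, 50 moved beyond their intervals when Il1rl1 was required, 47 with receptor-led members, 58 after thinning and 0 with doublets kept. The test of genes between Lactation and Gestation was not run, nor were its alternatives (DESeq2, other size factors, no filter on low counts, no year term, each sample left out, doublets kept, the T cell receptor condition), since 3 of the 4 samples held under 10 members. The test of the shares permutes stage names within each library; no further pairing was used, since the labels number no replicates. Depth limits the shares: at 1000 UMIs 24 of 11202 cells passed the rule in the first library and 61 of 14213 in the second.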

Other observations

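Among the 31 cells of the second library that failed the rule only through 1 Cd3 UMI, Il7r was seen in 77.4%, Il2ra in 51.6%, Ltb4r1 in 35.5% and Klrg1 in 12.9%, at a median of 2673 UMIs. The 7 cells of the second library that failed only through 1 Ncr1 UMI held Il7r in 6, Il2ra in 4, Ltb4r1 in 4 and Arg1 in 3. The 10 that failed only through 1 UMI of a B cell gene held Il7r in 7, Il2ra in 5 and Arg1 in 3. These small sets lie outside the members by a single UMI each and are given as values.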
